A study of Mus musculus with 8 samples.

Results

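The genes described here encode the pyruvate dehydrogenase complex, the kinases and phosphatases that switch it, the tricarboxylic acid cycle (TCA cycle) and the enzymes at its edges. They were taken as a list of 30 gene symbols. The list was chosen by name and not by a measured value, though with earlier results of these data known. All 30 were found among the 48709 genes counted. Of these, 29 were abundant enough to be tested among 12696 genes, and the remaining one, Pdk4, had no read in any library. The cultures were started from hematopoietic stem/progenitor cells (HSPCs) of C57Bl/6J mice, sorted from the Lin-Sca1+cKit+ fraction and seeded at 10000 cells per well. One group was cultured for 7 days with 100 µM malonyl-CoA and the other, the control, for 7 days without it. Malonyl-CoA is the building block of fatty acid synthesis and an inhibitor of the transport of fatty acids into mitochondria. Both groups had the same serum-free medium with 100 ng/ml stem cell factor and 2 ng/ml Flt3 ligand, and no genetic change is named for either. Each group had 4 libraries, numbered 1, 3, 4 and 5 and made from 350 ng of total RNA of the cells grown from the seeded ones, so the values describe cultures after 7 days.

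Pyruvate dehydrogenase turns pyruvate, the end product of glycolysis, into acetyl-CoA inside mitochondria. Kinases (the Pdk family) phosphorylate its alpha subunit and switch it off, and phosphatases (the Pdp family) switch it on again. Citrate synthase joins the acetyl-CoA to oxaloacetate, and the cycle then oxidises it to carbon dioxide and supplies citrate for fatty acid synthesis and malonyl-CoA production in the cytosol. Blood stem cells are known for relying on glycolysis with high pyruvate dehydrogenase kinase activity, and for using mitochondrial oxidation more as they differentiate.

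The stretches before the annotated starts of Pdha1, which encodes the subunit that the kinases phosphorylate, and of the kinase genes are shown because the kinase genes span from an abundant member, Pdk3, to one with no read, Pdk4. They are RefSeq sequence, build GRCm38.p6, of 250 bases before the start and the base of the start, read 5′ to 3′. Capitals mark that last base and every match to 5 short motifs on either strand.
Pdha1 (chrX:160138430-160138680, minus strand): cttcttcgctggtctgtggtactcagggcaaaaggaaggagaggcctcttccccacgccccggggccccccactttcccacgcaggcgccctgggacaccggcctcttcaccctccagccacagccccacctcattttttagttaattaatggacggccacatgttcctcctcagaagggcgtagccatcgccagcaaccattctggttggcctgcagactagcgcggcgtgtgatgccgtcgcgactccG
Pdk1 (chr2:71872974-71873224, plus strand): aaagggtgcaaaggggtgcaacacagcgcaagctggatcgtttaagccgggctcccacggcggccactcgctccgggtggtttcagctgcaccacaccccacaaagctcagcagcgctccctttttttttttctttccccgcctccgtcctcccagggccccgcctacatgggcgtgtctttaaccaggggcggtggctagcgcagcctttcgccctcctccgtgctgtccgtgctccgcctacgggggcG
Pdk2 (chr11:95041371-95041621, minus strand): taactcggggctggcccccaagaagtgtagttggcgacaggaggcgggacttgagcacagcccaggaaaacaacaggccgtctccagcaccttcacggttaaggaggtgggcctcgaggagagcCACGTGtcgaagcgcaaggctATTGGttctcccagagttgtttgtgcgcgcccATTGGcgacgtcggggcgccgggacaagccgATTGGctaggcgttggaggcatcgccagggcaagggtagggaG
Pdk3 (chrX:93832150-93832400, minus strand): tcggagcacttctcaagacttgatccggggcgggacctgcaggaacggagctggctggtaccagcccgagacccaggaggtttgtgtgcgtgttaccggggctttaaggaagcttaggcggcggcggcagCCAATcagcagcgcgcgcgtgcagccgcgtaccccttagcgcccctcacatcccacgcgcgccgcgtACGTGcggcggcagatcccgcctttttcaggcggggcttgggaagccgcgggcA
Pdk4 (chr6:5496278-5496528, minus strand): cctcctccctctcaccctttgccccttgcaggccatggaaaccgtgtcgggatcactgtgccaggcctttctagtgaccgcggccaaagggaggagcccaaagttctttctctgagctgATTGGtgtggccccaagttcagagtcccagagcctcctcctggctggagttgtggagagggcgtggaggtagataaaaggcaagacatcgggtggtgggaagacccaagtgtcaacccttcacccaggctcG
Promoter sequence was matched for 27 of the 30 members, the exceptions being Pdp1, Idh3a and Me2, and the search window also took in the 50 bases after the start. The motifs searched were CCAAT, the ETS core CGGAAG, the hypoxia response core ACGTG, the NRF1 core GCATGC and the ERR core AAGGTCA. Pdk2 held CCAAT on the reverse strand at positions 146, 178 and 209, counted from the first base shown, and ACGTG on both strands at positions 125 and 126, which overlap. Pdk3 held CCAAT at position 131 and ACGTG at position 198, Pdk4 held CCAAT on the reverse strand at position 120, and neither Pdha1 nor Pdk1 held any of the motifs. Among the 27 members CCAAT was found in 16 (59.3%), against 38.2% of all 20592 promoters and 39.1% of the 9734 of tested genes. The ETS core was found in 10 members (37.0%), against 32.9% for tested genes and 19.98% for all promoters. For ACGTG the count was 9 members (33.3%), against 26.2% of tested genes and 20.5% of all promoters. The NRF1 core was found in 1 member, Pdhb (3.70%, against 10.2% of tested genes and 8.15% of all promoters), and the ERR core in 0 (against 2.96% and 4.25%). CpG pairs per window had a median of 21 in the members and 21 in tested genes, and ranged in the members from 12 in Pdk4 to 47 in Pdpr. A match describes these letters and is not a measured binding site.

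A library held between 17492085 reads (malonyl-CoA 5) and 22079844 reads (control 5) in genes, and the 29 tested members had between 83 and 8642 reads in a library. All 28 pairs of libraries differed beyond counting noise, with a chi-square per gene of 7.63 or more. Malonyl-CoA 4 stood apart on the first principal component (63.3, against -30.4 to 25.3 in the others), and control 5 had the strongest relation of expression to transcript GC content (Spearman's rho -0.74 across genes, against -0.11 to 0.52 in the others). These libraries also carried many of the extremes: malonyl-CoA 4 was the lowest of the 8 for 12 members (24.3% of all tested genes) and control 5 for 9 (22.7% of all tested genes). Control 1 was the highest of the 8 for 10 members (17.6% of all tested genes) and control 5 for 8 (20.6% of all tested genes). Of the markers of the seeded cells, Kit averaged 244 ± 51.9 CPM (reads scaled to library size with TMM factors) with malonyl-CoA and 270 ± 36.7 CPM in control, and Cd34 454 ± 20.1 CPM with malonyl-CoA and 598 ± 41.4 CPM in control (SD, n = 4 each). The groups overlapped for Kit and did not for Cd34. Ly6a, the gene of Sca1, averaged 81.3 ± 37.2 CPM with malonyl-CoA and 42.2 ± 21.1 CPM in control, with overlapping groups. Mpo, a granule gene of neutrophil precursors, averaged 9165 ± 1470 CPM with malonyl-CoA and 9386 ± 2425 CPM in control. The monocyte marker Ly6c2 averaged 1128 ± 128 CPM with malonyl-CoA and 1190 ± 186 CPM in control. The label of stem and progenitor cells thus covers cultures with abundant RNA of myeloid genes, and the share of each cell type was not measured. The T cell gene Cd3e and the connective tissue gene Col3a1 had no read in any library.

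The members ranged widely in level. Per kb of exon, Mdh1, the cytosolic malate dehydrogenase, was the highest at 145 ± 19.6 CPM per kb over the 8 libraries, followed by Idh2 at 112 ± 14.4 and Mdh2 at 97.9 ± 13.2 CPM per kb. Pdha1 came next at 97.1 ± 14.8 CPM per kb and then Idh1 at 80.9 to 113 CPM per kb, and the levels of these 5 genes overlapped between neighbours in the order. A gap without overlap followed: Idh1 was at least 80.9 CPM per kb in every library, and the next gene, Cs, reached at most 79.3. Cs, Idh3g, Dld, Fh1, Pdk3 and Ogdh then lay between 69.6 and 44.1 CPM per kb, and 11 further genes from Pdk1 to Me2 between 32.2 and 16.8 CPM per kb. The next gap set off the low genes, with Pdhx at 8.81, Pdp1 at 7.37, Pdpr at 6.61, Pdp2 at 6.36 and D2hgdh at 4.54 CPM per kb. Pdk2 at 2.20 ± 0.53 and Pcx at 1.77 ± 0.42 CPM per kb were the lowest with reads, and Pcx was 81.8-fold below Mdh1. Of the 29 neighbouring pairs in this order, 24 overlapped between libraries.

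**Figure D1:**
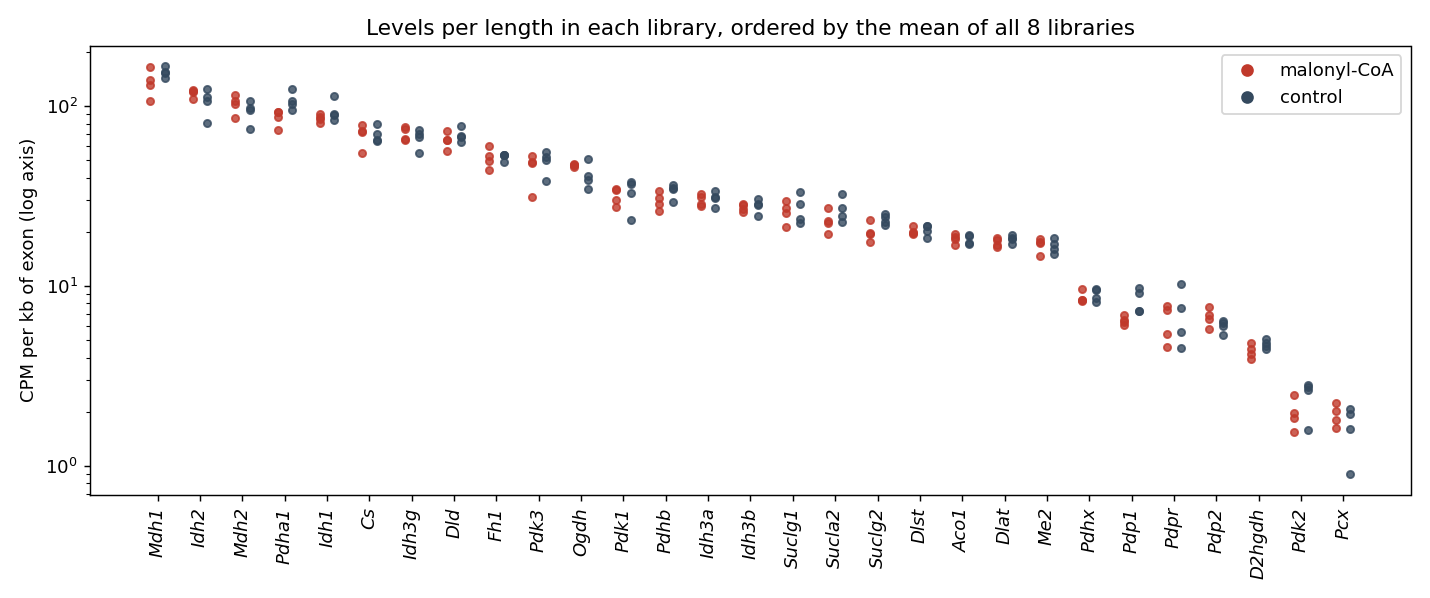
Level of each member per kb of exon (CPM per kb, log axis) in the 4 malonyl-CoA libraries (red, left) and the 4 control libraries (dark blue, right), ordered by the mean over all 8. Points of the groups overlap for every gene drawn except Pdha1 and Pdp1, while the genes spread from 145 to 1.77 CPM per kb, and Pdk4, at 0 reads, is not drawn.

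Malonyl-CoA and control cultures were compared with edgeR's quasi-likelihood test with Benjamini-Hochberg adjustment over the 12696 genes tested. No member passed an adjusted p of 0.05, nor did any other gene (0 of 12696, 0%; DESeq2 called 0.591% of the 13871 genes for which it gave an adjusted p, none of them a member). Members' adjusted p ranged from 0.498 to 0.995, and their log2 fold changes of malonyl-CoA over control ranged from -0.38 to 0.24 with standard errors of 0.095 to 0.27. For 17 of the 29 the log2 fold change was smaller than its standard error. Fold changes were negative for 20 members and positive for 9 (background 53.4% positive), with a median of -0.053 over the members and 0.023 over all tested genes. At an unadjusted p under 0.05 there were 0 higher members (background 5.43% of all tested genes) and 2 lower ones, Pdha1 and Pdp1 (background 4.10%). The same 2 genes had groups that did not overlap (background 2.93% lower, 3.21% higher and 6.14% either way), so each count, 2 of 29 members, stands against 9.53% and 6.14% of all tested genes in either direction. The labels do not say what a replicate number stands for, so p-values measure the spread between these 8 libraries. In cultures of mixed cells, fewer cells of a type and less RNA per cell cannot be told apart.

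**Figure D2:**
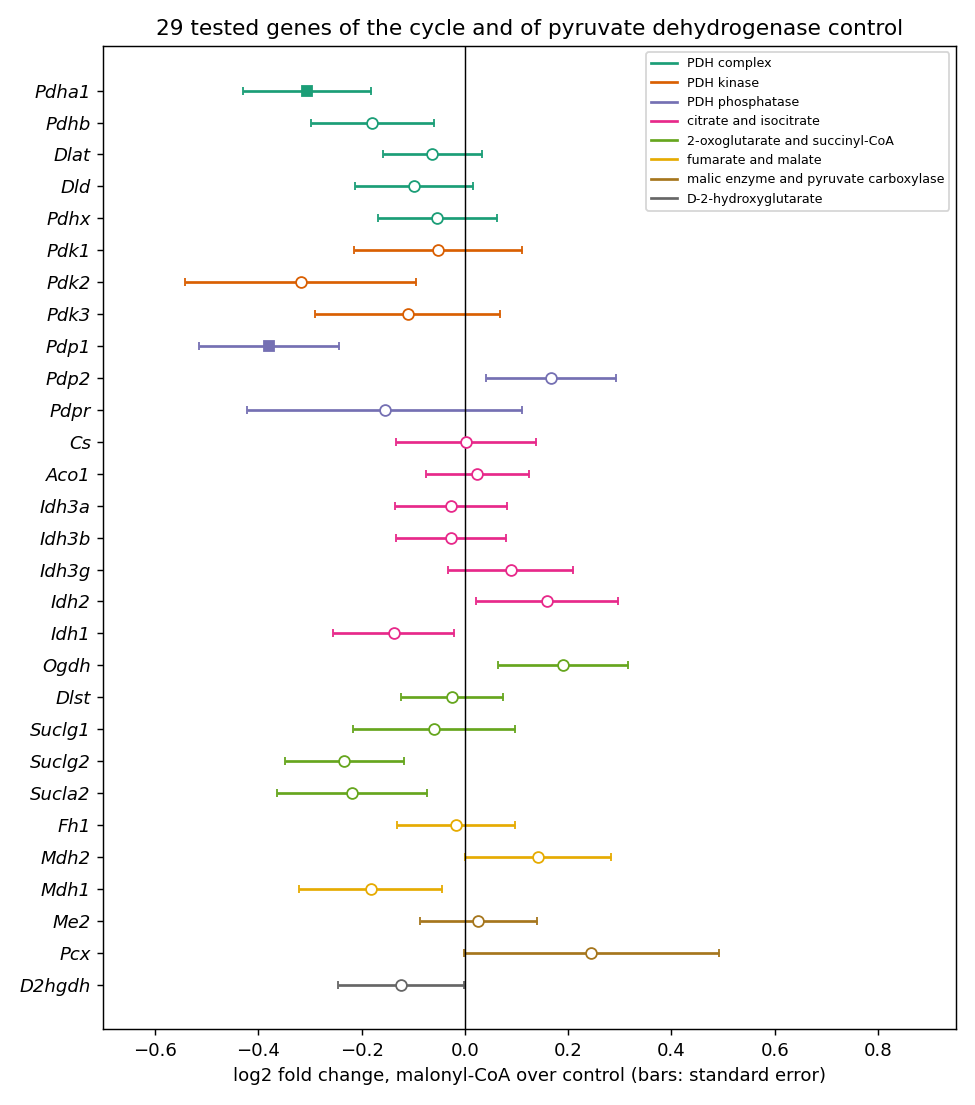
Log2 fold change of malonyl-CoA over control for the 29 tested members, coloured by role, with bars of 1 standard error; filled squares are the genes whose groups do not overlap, Pdha1 and Pdp1. All values lie between -0.38 and 0.24, and none passed the adjusted test.

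Among the subunits of the pyruvate dehydrogenase complex, all 5 had negative log2 fold changes, from -0.31 to -0.053, and Pdha1 was at the low end. Pdha1 had 348, 325, 276 and 348 CPM in malonyl-CoA 1, 3, 4 and 5, against 464, 400, 355 and 386 CPM in control 1, 3, 4 and 5. Every malonyl-CoA library was below every control library, by a narrow margin to control 4. The means were 324 ± 33.9 CPM with malonyl-CoA and 401 ± 46.0 CPM in control (SD, n = 4 each), a log2 fold change of -0.31 (SE 0.12, unadjusted p = 0.0336 and adjusted p = 0.508 in edgeR's test). Leaving out one library gave an unadjusted p over 0.05 in 4 cases in edgeR's test, 0.105 without control 1, 0.0647 without control 3, 0.0695 without malonyl-CoA 3 and 0.0716 without malonyl-CoA 4. The exons of Pdha1 (chromosome X, 160122209 to 160138413, minus strand, GRCm38) are overlapped over 16.1% of their length by Map3k15 on the other strand. Map3k15 had 3.90 to 6.51 CPM with malonyl-CoA and 3.14 to 5.91 CPM in control, and since the strand setting of the counting is not given, reads in the overlap cannot be assigned with certainty.

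The other subunits had smaller fold changes. Pdhb, the beta subunit that forms the active site with Pdha1, had 119, 111, 101 and 130 CPM with malonyl-CoA and 136, 133, 113 and 141 CPM in control (libraries 1, 3, 4 and 5), a log2 fold change of -0.18 (SE 0.12, adjusted p = 0.548 in edgeR's test). Control 4 lay below malonyl-CoA 1 and 5, so the groups overlapped. Dld, the dehydrogenase subunit that the complex shares with 2-oxoglutarate and branched-chain 2-oxoacid dehydrogenase, stood at a log2 fold change of -0.099 (SE 0.11). The acetyltransferase core gene Dlat, whose product carries the lipoyl groups, had 83.0, 81.0, 87.7 and 90.1 CPM with malonyl-CoA and 88.9, 84.1, 90.1 and 93.8 CPM in control, a log2 fold change of -0.063 and the smallest standard error of the members, 0.095. Pdhx, which tethers Dld to that core, had 32.8, 32.9, 32.5 and 37.7 CPM with malonyl-CoA and 37.9, 32.0, 33.8 and 37.4 CPM in control, a log2 fold change of -0.053 (SE 0.12). The 5 genes summed to 822, 788, 705 and 872 CPM with malonyl-CoA and to 977, 896, 824 and 944 CPM in control. These sums overlapped between the groups through malonyl-CoA 5 and control 4.

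Relative to Pdha1 per kb, the partner subunits stood at different levels. Pdhb was at 33.2%, 33.0%, 35.4% and 36.1% of the Pdha1 level in malonyl-CoA 1, 3, 4 and 5 and at 28.4%, 32.1%, 30.8% and 35.4% in control 1, 3, 4 and 5. Dld was at 69.4% to 77.4% with malonyl-CoA and 54.7% to 75.3% in control, Dlat at 18.2% to 24.2% with malonyl-CoA and 14.7% to 19.4% in control, and Pdhx at 8.96% to 11.2% with malonyl-CoA and 7.59% to 9.21% in control. All 4 ratios overlapped between the groups, with the lowest value of Pdhb, Dld and Dlat in control 1, where Pdha1 was highest.

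**Figure D3:**
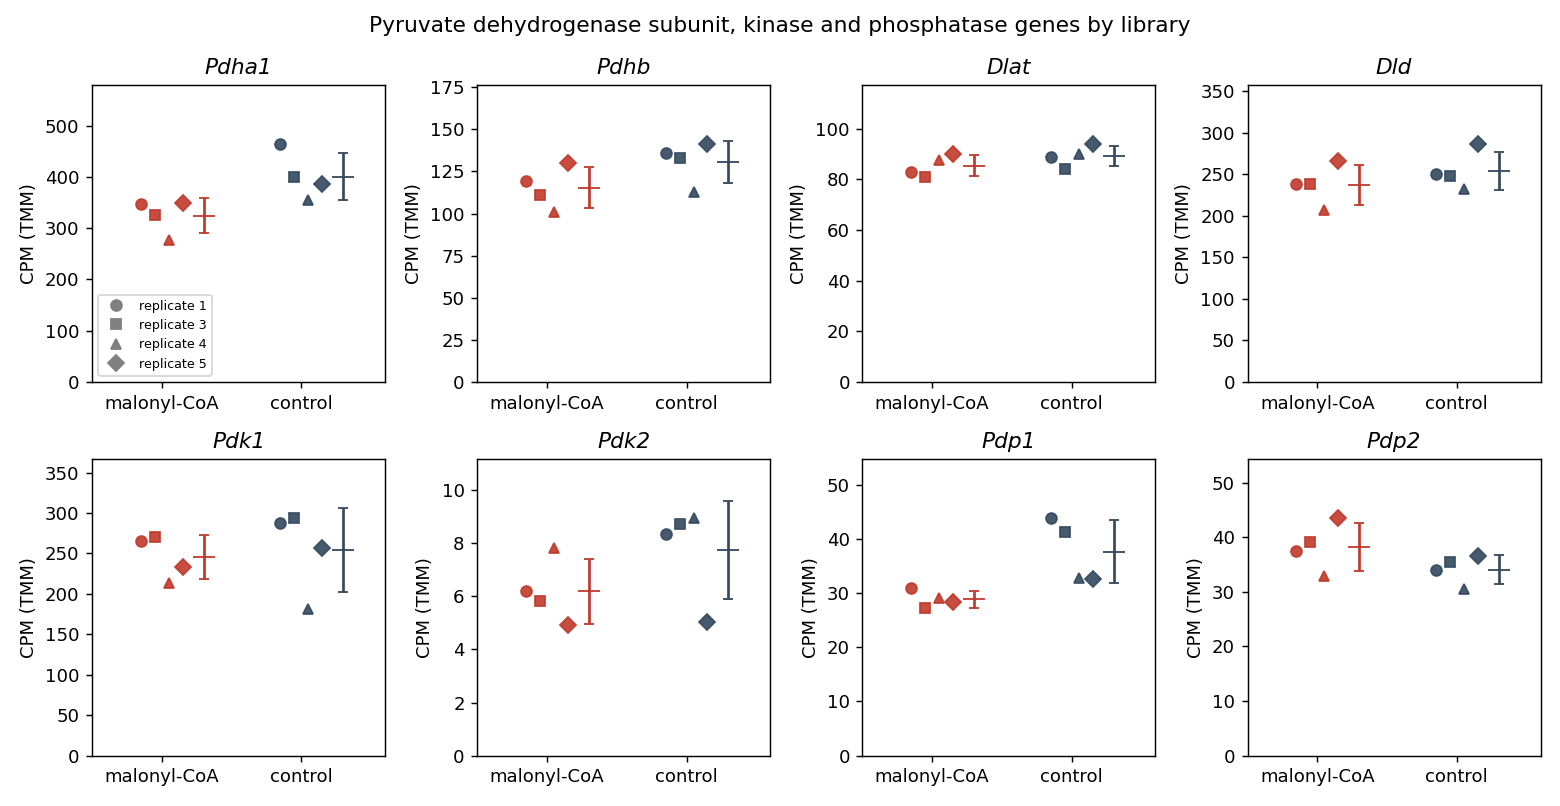
CPM (TMM-scaled) of 8 genes of the pyruvate dehydrogenase complex and its control in the malonyl-CoA libraries (red, left) and the control libraries (dark blue, right); symbols give the library number and bars the mean ± SD (n = 4 each). Pdha1 and Pdp1 show no overlap between the groups, with malonyl-CoA below control, and the other 6 genes overlap.

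The kinase genes were led by Pdk1 and Pdk3, and Pdk4 was not detected. Pdk1, a kinase gene known as a target of hypoxia-inducible factor, had 265, 270, 214 and 234 CPM with malonyl-CoA and 288, 294, 181 and 257 CPM in control, a log2 fold change of -0.052 (SE 0.16). In both groups library 4 was the lowest. Pdk3 had 124, 125, 80.2 and 136 CPM with malonyl-CoA and 128, 134, 98.2 and 142 CPM in control, again with library 4 lowest in both groups, and a log2 fold change of -0.11 (SE 0.18). Pdk2 had 6.19, 5.81, 7.82 and 4.91 CPM with malonyl-CoA and 8.33, 8.71, 8.94 and 5.02 CPM in control. Its groups overlapped through control 5, and the log2 fold change was -0.32 (SE 0.22, -0.48 without control 5, unadjusted p = 0.187 and adjusted p = 0.559 in edgeR's test). After a correction for transcript GC content the log2 fold change of Pdk2 was -0.54 (unadjusted p = 0.00694, adjusted p = 0.512 in edgeR's test). Pdk4, which is known to respond to fasting and to fatty acids through PPAR receptors, had 0 reads in all 8 libraries, which allows up to 0.136 to 0.172 CPM per library (3 counts, counting error only). Of 21695 protein-coding genes counted, 6287 (28.98%) also had no read in any library, and Ppara, the gene of one of those receptors, was among the genes with none.

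Per kb of exon, Pdk3 made up 57.1% ± 4.7 of the kinase gene signal with malonyl-CoA and 58.3% ± 2.7 in control, Pdk1 40.4% ± 3.8 with malonyl-CoA and 38.7% ± 2.7 in control, and Pdk2 2.58% ± 0.99 with malonyl-CoA and 3.02% ± 1.08 in control (SD, n = 4 each). The balance among the kinase genes overlapped between the groups for all 3. Hypoxia target genes, a class to which Pdk1 belongs, were low in sum in the same libraries. The sum was 956 CPM in malonyl-CoA 4 and 835 CPM in control 4, against 1643 to 1766 CPM in the other malonyl-CoA libraries and 1617 to 1973 CPM in the other controls. Vegfa went the other way in malonyl-CoA 4, where it was the highest of all libraries (99.0 CPM). Car9 in control 4 (17.9 CPM) was above control 5 (16.9 CPM), and the other listed targets were lowest in library 4 of both groups. The low Pdk1 and Pdk3 values in the libraries numbered 4 thus stood beside low levels of most hypoxia targets, and the part of these in the kinase values was not tested. The log2 fold change of Hif1a itself was -0.017 (SE 0.11).

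The phosphatase genes had fold changes of both signs. Pdp1, the calcium-responsive catalytic subunit, had 30.9, 27.2, 29.1 and 28.3 CPM in malonyl-CoA 1, 3, 4 and 5, against 43.8, 41.2, 32.8 and 32.5 CPM in control 1, 3, 4 and 5. All malonyl-CoA libraries were below all controls, closely so for control 4 and 5, and the malonyl-CoA libraries varied less. The means were 28.9 ± 1.56 CPM with malonyl-CoA and 37.6 ± 5.78 CPM in control (SD, n = 4 each), a log2 fold change of -0.38 (SE 0.14). The unadjusted p was 0.0193 and the adjusted p 0.498 in edgeR's test, the smallest of the members, and without control 1, control 3 or malonyl-CoA 3 the unadjusted p was 0.063, 0.0601 and 0.0569. Pdp2, the other catalytic subunit, had 37.5, 39.2, 32.9 and 43.5 CPM with malonyl-CoA and 33.9, 35.4, 30.5 and 36.6 CPM in control, a log2 fold change of 0.17 (SE 0.13, adjusted p = 0.580 in edgeR's test). Malonyl-CoA 4 lay below 3 of the controls, so the groups overlapped, and without malonyl-CoA 5 the log2 fold change was 0.099. Pdpr, the regulatory subunit that restrains the phosphatase, ranged from 22.9 to 39.0 CPM with malonyl-CoA and from 22.9 to 51.8 CPM in control. Its spread within a group exceeded the difference between them (log2 fold change -0.16, SE 0.27).

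Per kb, Pdp1 made up 51.0%, 46.7%, 52.8% and 45.1% of Pdp1 plus Pdp2 with malonyl-CoA and 62.0%, 59.5%, 57.6% and 52.9% in control. The mean share was 48.9% ± 3.60 with malonyl-CoA and 58.0% ± 3.84 in control (SD, n = 4 each), without overlap, though malonyl-CoA 4 and control 5 nearly met. Kinase genes (Pdk1, Pdk2 and Pdk3) over phosphatase catalytic genes gave a ratio of 5.99 ± 0.69 with malonyl-CoA and 5.86 ± 0.63 in control (SD, n = 4 each), with overlapping groups. Such ratios within a family are descriptions without a test. Of the 11 computed, 3 had groups that did not overlap: this Pdp1 share, the Idh3b share and the Mdh2 share given with their genes. Shares within a family depend on each other, and no background over ratios of other genes was computed. For single genes the share without overlap was 6.14% of all tested genes.

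The 7 genes of the citrate and isocitrate steps had log2 fold changes between -0.14 and 0.16, 4 of them positive. Cs, citrate synthase, which joins acetyl-CoA and oxaloacetate, had 421, 416, 318 and 454 CPM with malonyl-CoA and 458, 406, 373 and 369 CPM in control. Its log2 fold change was 0.0018 (SE 0.13), with malonyl-CoA 4 the lowest and control 1 the highest of the 8. Aco1, the cytosolic aconitase that also acts as an iron-responsive RNA-binding protein, stood at a log2 fold change of 0.024 (SE 0.10). The subunit genes of the NAD-linked isocitrate dehydrogenase, Idh3a, Idh3b and Idh3g, had log2 fold changes of -0.027 (SE 0.11), -0.027 (SE 0.11) and 0.089 (SE 0.12). Idh3b made up 20.6% to 21.8% of the Idh3 signal per kb with malonyl-CoA and 22.2% to 22.9% in control, a small difference without overlap.

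Idh2 and Idh1 encode the NADP-linked isocitrate dehydrogenases of mitochondria and cytosol. Idh2 had 308, 284, 315 and 317 CPM with malonyl-CoA and 293, 275, 321 and 208 CPM in control, a log2 fold change of 0.16 with a standard error of 0.14, the highest of this step. Control 5 alone was far below the others, and the log2 fold change was 0.047 without it and 0.25 without control 4. Idh1 had 235, 224, 241 and 250 CPM with malonyl-CoA and 248, 252, 232 and 314 CPM in control, a log2 fold change of -0.14 with a standard error of 0.12, the lowest of this step. Control 5 was here the highest library, and without it the log2 fold change was -0.038. The Idh2 share of Idh1 plus Idh2 per kb was 58.0% ± 0.45 with malonyl-CoA and 52.7% ± 7.88 in control (SD, n = 4 each), the wide control spread coming with 41.5% in control 5 against 53.9% to 59.7% in the other controls.

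At the 2-oxoglutarate and succinyl-CoA steps, 1 gene was positive and 4 were negative. Ogdh, the first subunit of 2-oxoglutarate dehydrogenase, had 261, 256, 251 and 258 CPM with malonyl-CoA and 223, 213, 276 and 188 CPM in control, a log2 fold change of 0.19 (SE 0.13, adjusted p = 0.545 in edgeR's test). The malonyl-CoA libraries lay close together, and control 4 alone of the controls was above them. The log2 fold change was 0.30 without control 4, 0.11 without control 5 and 0.078 after the GC correction. Dlst, the lipoyl-bearing core of the same complex, had a log2 fold change of -0.025 (SE 0.10).

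Succinyl-CoA ligase pairs the alpha subunit Suclg1 with a beta subunit for GDP (Suclg2) or ADP (Sucla2). Suclg2 had 89.8, 90.9, 81.4 and 108 CPM with malonyl-CoA and 117, 102, 105 and 112 CPM in control, a log2 fold change of -0.23 (SE 0.12, unadjusted p = 0.0706 and adjusted p = 0.515 in edgeR's test). It was the lowest of this step, and only malonyl-CoA 5 reached the control range. Sucla2 had 91.5, 88.9, 77.7 and 109 CPM with malonyl-CoA and 98.2, 109, 90.9 and 129 CPM in control, a log2 fold change of -0.22 (SE 0.15). Without control 5, its highest library, that was -0.12, and without control 5 and malonyl-CoA 4 together -0.043. In the balance of the beta subunits, Suclg2 made up 46.6% ± 0.75 of their sum per kb with malonyl-CoA and 47.0% ± 3.82 in control (SD, n = 4 each). Suclg1 had a log2 fold change of -0.060 (SE 0.16).

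At the fumarate and malate steps the malate dehydrogenase genes had fold changes of opposite sign. Mdh2, the mitochondrial enzyme that closes the cycle, had 381, 365, 304 and 413 CPM with malonyl-CoA and 378, 347, 337 and 264 CPM in control, a log2 fold change of 0.14 (SE 0.14), or 0.045 without control 5 and 0.078 without malonyl-CoA 5. Mdh1, the cytosolic enzyme of the malate-aspartate shuttle, had 360, 338, 274 and 423 CPM with malonyl-CoA and 427, 396, 366 and 394 CPM in control, a log2 fold change of -0.18 (SE 0.14, adjusted p = 0.579 in edgeR's test), or -0.092 without malonyl-CoA 4 and -0.29 without malonyl-CoA 5. Both genes overlapped between the groups, but their balance did not: Mdh2 made up 43.3%, 43.8%, 44.5% and 41.3% of the sum per kb with malonyl-CoA and 39.0%, 38.7%, 39.9% and 32.6% in control. The mean share was 43.2% ± 1.38 with malonyl-CoA and 37.5% ± 3.37 in control (SD, n = 4 each). The GC content of the transcripts differs, 50.9% for Mdh2 and 45.7% for Mdh1, and its part in the share was not tested. Fh1, fumarate hydratase, had 178, 168, 150 and 203 CPM with malonyl-CoA and 181, 182, 165 and 181 CPM in control, a log2 fold change of -0.018 (SE 0.11).

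**Figure D4:**
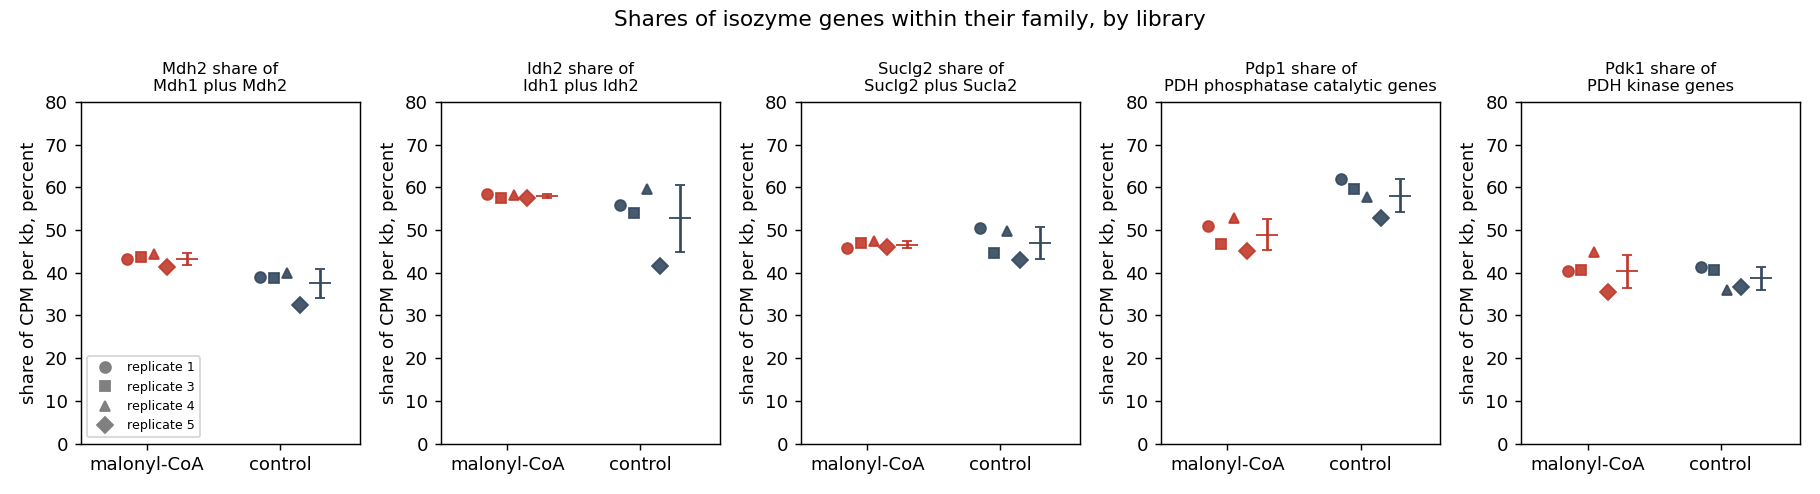
Share of one gene within its isozyme family, in percent of CPM per kb of exon, in the malonyl-CoA libraries (red, left) and the control libraries (dark blue, right), with bars of mean ± SD (n = 4 each). The Mdh2 and Pdp1 shares do not overlap between the groups, while the Idh2, Suclg2 and Pdk1 shares do, and control 5 is the lowest control in the Idh2, Mdh2, Suclg2 and Pdp1 panels.

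The genes at the edges of the cycle had small or imprecise differences. Me2, the mitochondrial malic enzyme that makes pyruvate from malate, had 127, 132, 106 and 126 CPM with malonyl-CoA and 123, 117, 109 and 134 CPM in control, a log2 fold change of 0.026 (SE 0.11). Pcx, pyruvate carboxylase, which refills oxaloacetate, had 8.57, 9.53, 10.6 and 7.75 CPM with malonyl-CoA and 9.87, 7.58, 9.22 and 4.27 CPM in control. Its log2 fold change of 0.24 was the highest of the members but was no larger than its standard error of 0.25, and without control 5, the lowest library, it was 0.040 (0.38 without control 1 and 0.15 without malonyl-CoA 4). D2hgdh, which clears D-2-hydroxyglutarate, had 17.9, 19.2, 20.6 and 16.7 CPM with malonyl-CoA and 20.5, 18.98, 19.8 and 21.8 CPM in control, a log2 fold change of -0.12 (SE 0.12), or -0.078 without malonyl-CoA 5.

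The sign of the members' fold changes went with the GC content of their transcripts. Of the 8 members with a GC content of 50% or more, 6 were positive (median log2 fold change 0.11), and of the 21 with less, 3 were positive and 18 negative (median -0.063). Spearman's rho of fold change with GC content was 0.56 over the 29 members and 0.44 over 12678 genes, given as a description since all genes share the same 8 libraries. After the GC correction rho over the members was 0.13, with 4 of 8 GC-rich members positive and 3 of 21 others positive. The correction removes a fitted relation to GC content from each library, so a lower rho follows from it. The median log2 fold change was then -0.0303 over the members and -0.0244 over all tested genes. With the GC and length correction, 4 of 8 and 8 of 21 were positive, with medians of -0.0245 over the members and -0.0222 over all tested genes. Under the GC correction alone Pdp1, at 39.2% the member with the lowest GC content, had a log2 fold change of -0.26 (unadjusted p = 0.128 in edgeR's test). Pdha1, at 45.5%, had one of -0.27 (unadjusted p = 0.0771 in edgeR's test). Neither was then under an unadjusted p of 0.05.

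**Figure D5:**
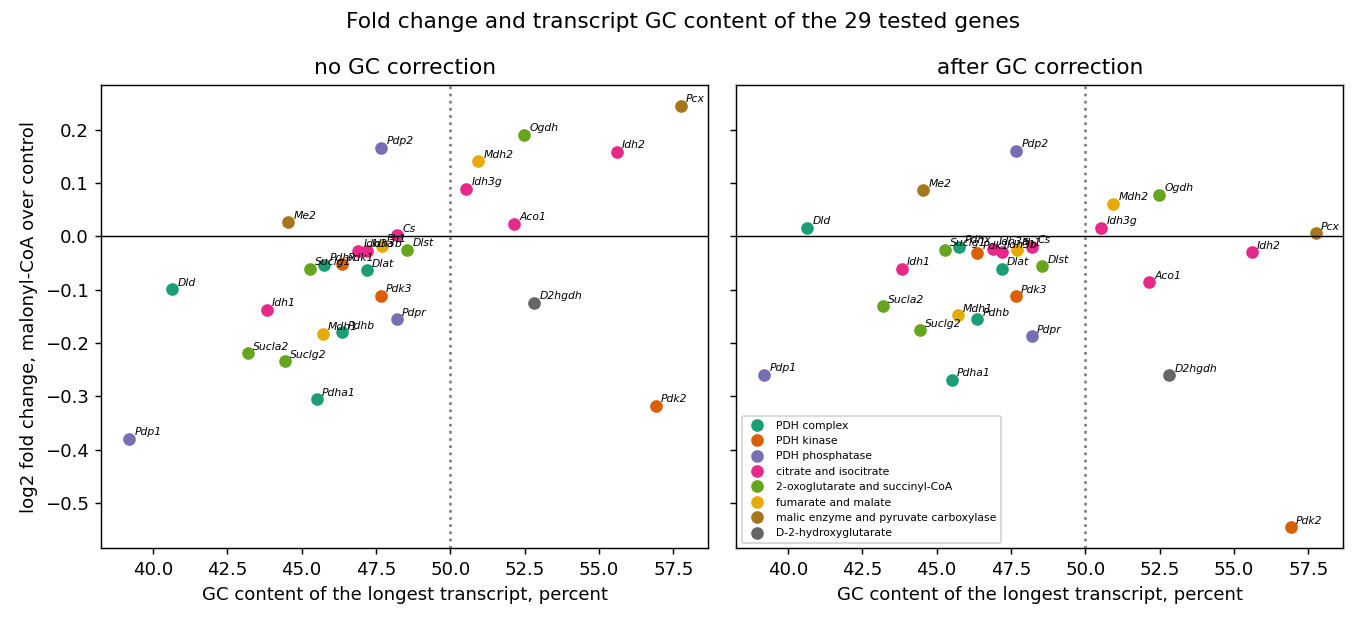
Log2 fold change of malonyl-CoA over control against the GC content of the longest transcript for the 29 tested members, as fitted (left) and after a GC correction (right); the dotted line marks 50%. Fold change follows GC content on the left (rho 0.56) and less so on the right (rho 0.13), as the correction removes a fitted relation to GC content. On the right Pdk2 is the lowest gene at -0.54.

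Of the 10 tested genes among the remaining cycle enzymes, which are not members, 4 were positive and 6 negative (median log2 fold change -0.089). Sdhaf4, an assembly factor of succinate dehydrogenase, averaged 14.8 ± 3.70 CPM with malonyl-CoA and 21.3 ± 5.25 CPM in control (SD, n = 4 each, log2 fold change -0.53, SE 0.23) and was the only one under an unadjusted p of 0.05. Succinate dehydrogenase subunit genes ran from a log2 fold change of -0.25 for Sdhc to 0.11 for Sdhb.

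Pyruvate entry and citrate exit had 11 tested genes, 6 positive and 5 negative (median 0.043). Acly, which splits exported citrate into acetyl-CoA, averaged 708 ± 76.6 CPM with malonyl-CoA and 577 ± 51.4 CPM in control (SD, n = 4 each), and Slc25a1, the citrate carrier, 180 ± 19.4 CPM with malonyl-CoA and 140 ± 28.4 CPM in control, log2 fold changes of 0.30 (SE 0.12) and 0.36 (SE 0.16). Ldhb, a lactate dehydrogenase subunit, averaged 11.96 ± 2.07 CPM with malonyl-CoA and 16.5 ± 2.49 CPM in control (log2 fold change -0.47, SE 0.17). Acly and Ldhb had unadjusted p under 0.05 and adjusted p of 0.515 and 0.502 in edgeR's test. The groups overlapped for all 3 genes.

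The supply of lipoate and iron-sulphur clusters, cofactors of several cycle enzymes, had 1 positive gene, Iscu, and 10 negative ones of 11 tested (median -0.099), none under an unadjusted p of 0.05. Other lipoyl or 2-oxoacid dehydrogenase genes were negative in 5 of 5 (median -0.10), also with none under it. Glutamine and glutamate entry had 4 positive and 2 negative genes of 6 (median 0.062). In that list the glutamine carrier gene Slc1a5 averaged 308 ± 9.35 CPM with malonyl-CoA and 268 ± 31.9 CPM in control (SD, n = 4 each), without overlap (unadjusted p = 0.105 and adjusted p = 0.521 in edgeR's test).

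Regulators of these genes were split, with 6 positive and 6 negative of 12 tested (median 0.011). Ppard, a fatty acid receptor gene, averaged 19.6 ± 3.75 CPM with malonyl-CoA and 11.7 ± 3.01 CPM in control (SD, n = 4 each), a log2 fold change of 0.75 (SE 0.21, adjusted p = 0.391 in edgeR's test). PPAR target genes had 5 positive and 3 negative of 8 (median 0.036), with none under an unadjusted p of 0.05. Tfam, a factor for mitochondrial DNA, averaged 91.9 ± 11.7 CPM with malonyl-CoA and 115 ± 17.1 CPM in control (log2 fold change -0.33, SE 0.14). Hypoxia targets had 4 positive and 6 negative of 10 (median -0.066), and Vegfa was the one under an unadjusted p of 0.05 (log2 fold change 0.39, SE 0.14).

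Markers of other cells varied beside these values. Stem and progenitor markers summed to 1063 to 1115 CPM with malonyl-CoA and 1151 to 1250 CPM in control, and mast cell and basophil markers to 663 to 799 CPM with malonyl-CoA and 804 to 997 CPM in control, both without overlap. The first sum is carried by Cd34 and other abundant genes. Of the 10 stem and progenitor markers, 5 were positive and 5 negative (median log2 fold change -0.0052). Ly6a at 0.94 (SE 0.44) and Procr, a stem cell surface receptor gene, at 1.14 (SE 0.88) both overlapped. Cd34 at -0.40 (SE 0.10) and Hlf at -0.55 (SE 0.15) were lower without overlap, both at an unadjusted p under 0.05. Granulocyte precursor markers overlapped in sum (13270 to 17080 CPM with malonyl-CoA and 12860 to 20560 CPM in control). Their genes were negative in 8 of 8, 3 of them at an unadjusted p under 0.05 and 0 without overlap. Dendritic cell markers summed to 741 to 1345 CPM with malonyl-CoA and 579 to 993 CPM in control. Their tested genes were positive in 5 of 6, 3 of them at an unadjusted p under 0.05 and 0 without overlap. Of the mast cell and basophil markers, 5 of 6 were negative and Gata2 was positive. Cpa3, Mcpt8 and Fcer1a were lower without overlap, each at an unadjusted p under 0.05. Erythroid markers summed to 24.4 to 29.5 CPM with malonyl-CoA and 30.4 to 32.4 CPM in control, also without overlap. The largest part of that sum, Gata1, overlapped (15.9 ± 1.79 CPM with malonyl-CoA and 17.5 ± 1.43 CPM in control). Of the 5 tested erythroid genes 4 were negative, and Epor was positive (log2 fold change 0.31, SE 0.20). Klf1 (log2 fold change -0.67, SE 0.21) and Car1 (-0.72, SE 0.19) were lower without overlap, both at an unadjusted p under 0.05. Monocyte and macrophage markers overlapped in sum (1988 to 2334 CPM with malonyl-CoA and 1944 to 2376 CPM in control). Of their 7 tested genes 5 were positive, 3 of them at an unadjusted p under 0.05, and Csf1r and Marco were without overlap. Marco had the smallest p of all 12696 tested genes. As the lists were chosen with earlier results of these data known, its place in these counts is no separate evidence. Lymphoid markers also overlapped in sum (92.1 to 129 CPM with malonyl-CoA and 115 to 150 CPM in control). Of their tested genes 4 of 4 were negative, 3 of them at an unadjusted p under 0.05, and Dntt and Rag2 were without overlap. Over all tested genes, 5.43% were higher and 4.10% lower at an unadjusted p under 0.05. Groups did not overlap for 3.21% (higher) and 2.93% (lower). The part of these markers in the values of Pdha1, Pdp1 or any other member was not tested.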

How the data were processed

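Gene expression was measured by RNA sequencing of 4 malonyl-CoA and 4 control libraries. The values are unnormalised counts for each Ensembl gene as deposited by the authors. The submitters' processing notes name cutadapt 1.8, STAR 2.5.2b, HTSeq 0.6.1 and GRCm38, and the labels name a stranded library kit for total RNA. Neither the counting's strand setting nor its annotation release is given in the sources used here. Counting classes without a gene were left out of all totals and fits (no feature 1.11% to 2.94% of tallied reads, ambiguous 0.715% to 0.891%, several positions 38.2% to 51.1%). Of 48709 identifiers, 48349 matched GENCODE M21, which gave symbols, coordinates, exon lengths and transcript GC content, and unmatched ones took up to 0.0154% of the counts in a library.

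The counts were fitted with edgeR 4.0.16 in R 4.3.3 (filterByExpr with a minimum count of 10 and a minimum total of 15, TMM factors, robust glmQLFit, two-sided glmQLFTest, no covariate), with Benjamini-Hochberg adjustment over 12696 genes and a threshold of 0.05. Levels are CPM with TMM factors, and CPM per kb divides by the union exon length. Fold changes are malonyl-CoA over control. The members and gene lists were chosen with earlier results of these data known. All members are described, with values by library for those whose groups do not overlap or with an unadjusted p under 0.05 and for the highest and lowest of each role; other members are added where a sentence needs them. Deviations from group means correlated by 0.435, 0.428, 0.754 and 0.052 between same-numbered libraries. The last is under the minimum of 0.1, so the numbers were not taken to pair the samples. Alternatives were RLE factors, library size only, other filters, a replicate block, DESeq2 1.42.0, limma-voom (limma 3.58.1), leaving out libraries, and GC and GC plus length corrections (loess per library, span 0.5). The legacy edgeR fit was added after seeing the data. Scripts were tested on simulated data. Promoter sequences are RefSeq's, GRCm38.p6. Some genes of the neighbouring lists are not reported here.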

Additional observations from a re-analysis of the deposited data

Results flagged for a closer look

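Single libraries stood far from the other 3 of their group, by Dixon's criterion for small groups, in 3 of the 58 groups of 4 formed by the 29 tested members, and chance alone flags about 1 in 20 groups. Pdhx, which tethers a subunit in the pyruvate dehydrogenase complex, had 37.7 CPM in malonyl-CoA 5, against 32.5 to 32.9 CPM in the other malonyl-CoA libraries. Pdk2, a kinase of the complex, had 5.02 CPM in control 5, against 8.33 to 8.94 CPM in the other controls, and without control 5 its log2 fold change was -0.48. Fh1, fumarate hydratase, had 165 CPM in control 4, against 181 to 182 CPM in the other controls.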

How the results depend on the processing

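No result named here gained or lost a call at an adjusted p of 0.05 among the members under any of the 20 alternatives, but directions near 0 were not stable. Of 580 member values 49 changed sign, in 15 members, all within 0.0997 of 0 on the log2 scale, and 14 members never did. The cause was not tested. The count of genes past the adjusted p was 0 in the comparison as reported, 1 with no low-count filter and 82 with DESeq2. With the replicate number as a block, a pairing under which 6 of 8 libraries correlated best with their own number, it was 172. Under that block the members past an unadjusted p of 0.05 numbered 5 (Pdha1, Pdhb, Pdp1, Suclg2 and Sucla2). They stood beside 3238 of all 12696 tested genes. Pdha1 had an adjusted p of 0.0804 in edgeR's test with the block. The count of members past an unadjusted p of 0.05 was 2 as reported (1210 of all 12696 tested genes). It was 3 without both libraries numbered 4 (2129 of 12659) and 3 without control 5 and malonyl-CoA 4 together (1095 of 12657). With the GC correction and with the GC and length correction it was 1, Pdk2 (1044 and 1177 of 12696). Leaving out each library in turn, that count ranged from 0 (without control 1, control 3 or malonyl-CoA 3) to 3. All tested genes past an unadjusted p of 0.05 then numbered from 715 (without control 1) to 2238 (without control 4). The positive members ranged from 7 to 15, and the members' median log2 fold change from -0.0723 to 0.0033. Library size alone moved the median of all genes to 0.065 and gave 13 positive members, against 9 as reported.

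Log2 fold changes that changed sign under library size only were 0.014 for Idh3a, 0.013 for Idh3b, 0.014 for Dlst and 0.021 for Fh1. Cs was at -0.0054 with the block and -0.0046 with limma-voom. With the GC correction they were 0.016 for Dld, -0.020 for Cs, -0.086 for Aco1 and -0.030 for Idh2. With GC and length they were 0.049 for Dld, 0.019 for Pdhx, -5e-04 for Cs, -0.10 for Aco1, 0.013 for Idh3a, 0.036 for Idh3b, 0.0056 for Suclg1, 0.0052 for Fh1 and -0.025 for Pcx. Without both libraries numbered 4 they were 0.0088 for Idh3a, 6e-04 for Dlst and 0.010 for Fh1. Without control 5 and malonyl-CoA 4 they were 0.022 for Dld, 0.013 for Pdk1, 0.095 for Pdk3, 0.060 for Fh1 and -0.043 for Pcx. Leaving out each library in turn gave -0.1851 to 0.0226 for Pdk1, -0.2113 to 0.0241 for Pdk3, -0.3145 to 0.0929 for Pdpr, -0.0612 to 0.0894 for Cs, -0.0057 to 0.0518 for Aco1, -0.0843 to 0.0216 for Idh3a, -0.0873 to 0.0199 for Idh3b, -0.0713 to 0.0033 for Dlst, -0.1387 to 0.0598 for Suclg1, -0.0974 to 0.0411 for Fh1 and -0.0198 to 0.0824 for Me2.

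Pdk2 and Pcx had the fewest reads of the tested members, 83 to 192 and 91 to 238 per library, with standard errors of 0.22 and 0.25, and Pdpr the widest standard error, 0.27, with 387 to 908 reads. The part of depth in these errors was not tested.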
